A study of Mus musculus with 4 samples.

Results

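The enzymes of de novo purine and pyrimidine synthesis were examined in mouse liver 48 h after surgery. The members were 10 named genes, Ppat, Gart, Paics, Adsl, Atic, Impdh2, Cad, Dhodh, Umps and Ctps, each taken through every probe set (a group of short probes for 1 transcript) whose platform annotation gives that symbol alone. Of the 10 genes, 9 had such probe sets, 23 in all, among 45037 non-control probe sets and 18193 genes with a symbol of their own. Impdh2, an IMP dehydrogenase, had none, and its RNA was not analysed here. Total RNA of mature liver from C57BL/6J mice was hybridised to 4 Affymetrix arrays, 2 from animals 48 h after a sham operation and 2 from animals 48 h after partial hepatectomy, in which part of the liver is removed and the remainder regrows. The labels name no allele or drug, and neither age nor pooling of animals is given in the sources used here. The design text calls the arrays biological duplicates. Behind every p-value is a spread that combines the probe set's own spread within groups with that of other probe sets. Where 1 array was left out, the probe set's own spread came from the 2 arrays of the other group alone. Calls from such fits hold no spread of the group with 1 array.

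Dividing cells need purine and pyrimidine nucleotides for RNA, DNA and activated sugars. De novo synthesis builds the purine ring stepwise on phosphoribosyl pyrophosphate (PRPP) until inosine monophosphate (IMP) is formed, and builds the pyrimidine ring from glutamine, bicarbonate and aspartate before attaching it to PRPP to give UMP. The liver makes nucleotides de novo and also supplies other tissues with purines and uridine, and it holds salvage and breakdown pathways beside the synthetic ones.

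Of the 9 genes, 1 rose after hepatectomy and none fell: Ctps, which encodes the CTP synthase that makes CTP from UTP, had a mean signal of 626 ± 37.2 in sham and 1341 ± 50.2 after hepatectomy (SD, n = 2 per group). None of the 5 measured genes of the route to IMP (Ppat, Gart, Paics, Adsl, Atic) and none of the 3 measured genes of the route to UMP (Cad, Dhodh, Umps) passed the test. Over all 12560 genes tested, 3.57% were called higher and 1.09% lower, by limma with Benjamini-Hochberg adjustment at 0.05. At an unadjusted p of 0.05 the members likewise gave 1 higher and 0 lower, beside 12.5% higher and 7.47% lower of all genes, so the members' count at that threshold was near the share over all genes. The median log2 fold change of the 9 genes was 0.099, against 0.025 over all tested genes, and the values ran from -0.30 for Ppat to 1.09 for Ctps. On the individual arrays the median log2 deviation of the 9 genes from the sham mean was -0.099 and 0.099 for sham replicates 1 and 2, and 0.054 and 0.25 for hepatectomy replicates 1 and 2, so hepatectomy replicate 1 lay between the sham arrays.

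Hepatectomy replicate 1 stood apart in transcripts of other tissues. The summed signal of 5 measured adrenal cortex markers was 19041 on it, against 202 and 175 in sham and 203 on hepatectomy replicate 2. The steroid enzymes Cyp11a1 and Cyp11b1 were at or under 13.7 on the other 3 arrays. The summed signal of 3 fat cell markers was 881 on it, against 19.9, 27.3 and 92.7. The hepatocyte markers Alb, Ttr and Apoa1 stayed uncalled, with summed signals of 57307 and 48738 in sham and 52103 and 49766 after hepatectomy. All 5 markers of dividing cells (Mki67, Top2a, Cdk1, Mcm5, Ccna2) rose, with sums of 442 and 633 in sham and 6828 and 5872 after hepatectomy. The neutrophil genes S100a8 and S100a9 also rose, while Ngp and Camp, made in neutrophil precursors, were under the level of bacterial control probe sets on every array. The macrophage gene Marco (1 of 6 macrophage markers) and the collagen genes Col1a1 and Col1a2 (2 of 5 stellate cell and fibroblast markers) were called higher. The summed signal of 6 T, B and NK cell markers was 485 and 397 in sham and 194 and 185 after hepatectomy, with none of the 6 called. None of 4 endothelial markers was called. The part of these cells in the results was not tested. In such bulk RNA, a change in the share of a cell type and a change of RNA per cell cannot be told apart.

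Promoter windows of 9 members were present in the RefSeq table (build GRCm38.p6), running from 250 bases before to 50 after an annotated start. Dhodh had none. The windows of Ctps, the gene that rose, and of Paics and Ppat are shown. Paics and Ppat lie head to head on chromosome 5 with no protein-coding gene between them in RefSeq, and their start sites are 276 bases apart. Paics runs from its start toward and past the Ppat start, and Ppat runs past the Paics start. The 276 bases are thus an overlap of the annotated 5′ ends and not a gap. Capitals mark matches to a CACGTG E-box, a CCAAT box or a GGGCGG GC box on either strand, and the sequences read 5′ to 3′ on the gene's strand.
Ctps, chr4:120570227-120570526, minus strand: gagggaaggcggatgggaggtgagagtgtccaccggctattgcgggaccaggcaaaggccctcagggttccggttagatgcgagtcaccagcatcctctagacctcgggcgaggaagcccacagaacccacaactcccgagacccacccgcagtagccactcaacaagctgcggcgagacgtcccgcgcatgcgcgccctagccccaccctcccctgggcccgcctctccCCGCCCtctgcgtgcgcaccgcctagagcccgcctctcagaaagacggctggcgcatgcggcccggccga
Paics, chr5:76951052-76951351, plus strand: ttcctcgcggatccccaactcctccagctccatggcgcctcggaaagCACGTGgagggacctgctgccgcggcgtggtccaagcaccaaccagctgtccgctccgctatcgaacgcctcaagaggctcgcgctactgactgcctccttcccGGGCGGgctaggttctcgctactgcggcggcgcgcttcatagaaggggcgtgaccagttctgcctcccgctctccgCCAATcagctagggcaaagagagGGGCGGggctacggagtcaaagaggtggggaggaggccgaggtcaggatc
Ppat, chr5:76951529-76951828, minus strand: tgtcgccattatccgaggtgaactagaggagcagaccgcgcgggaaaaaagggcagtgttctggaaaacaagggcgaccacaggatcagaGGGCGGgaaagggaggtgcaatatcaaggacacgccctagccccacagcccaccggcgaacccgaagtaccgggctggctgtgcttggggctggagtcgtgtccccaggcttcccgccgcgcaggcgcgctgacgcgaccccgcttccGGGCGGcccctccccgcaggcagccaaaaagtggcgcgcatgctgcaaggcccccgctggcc
The 9 genes had 10 windows. The E-box, the sequence bound by Myc with Max, was found in 3 of the 10 (Paics, Atic and Impdh2), against 7.15% of 32807 promoter windows of this length. The CCAAT box was found in 4 of the 10 (Gart, Paics, Atic and Impdh2), against 37.4% of windows. The GC box was found in 9 of the 10, and for each of the 9 genes, against 35.6% of windows. Neither spelling of the E2F motif searched, TTTCGCGC or TTTGGCGC, was found in any member window, and 0.814% of windows held one. No match overlapped a match of another motif. Ctps has 2 windows in the table, 817 bases apart, and a single GC box 20 bases before the upstream start was the only match in either. These matches describe letters in a window and were not tested against the array values.

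**Figure D1:**
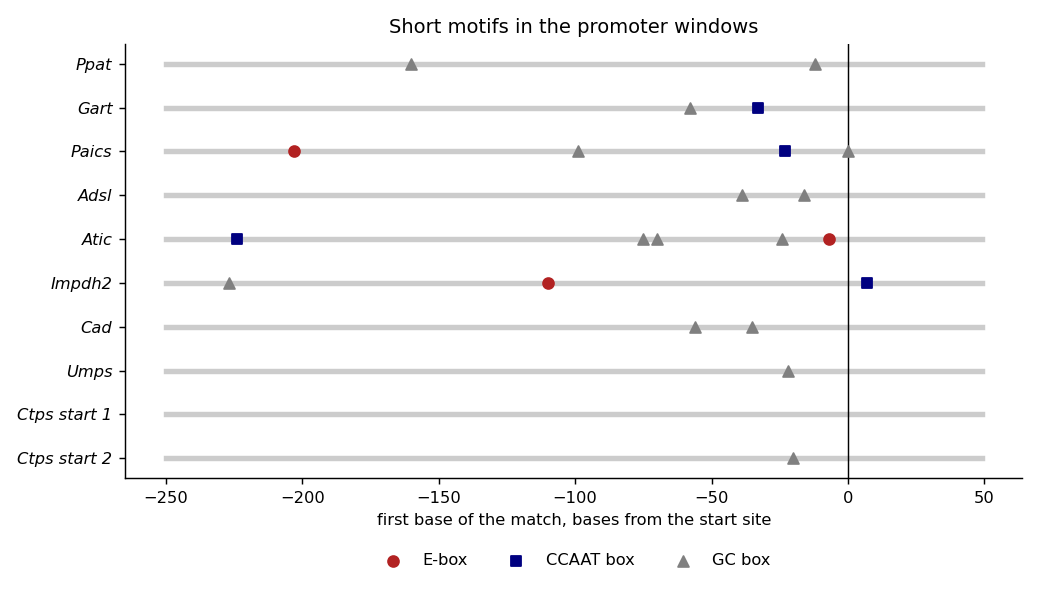
Matches to the E-box (circles), CCAAT box (squares) and GC box (triangles) on either strand in 10 promoter windows of 9 genes; the x axis gives the first base of a match in bases from the annotated start, and Ctps start 1 is the downstream one. The E-box is seen in Paics, Atic and Impdh2, and the downstream Ctps window holds no match.

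Ctps was measured by 1 probe set, 1416563_at. It read 599.7 and 652 in the 2 sham livers and 1377 and 1306 in the 2 hepatectomy livers. Both hepatectomy arrays lay above both sham arrays, and the 2 arrays of a group differed by no more than 1.09-fold. The log2 fold change was 1.09 ± 0.18 (SE; adjusted p = 0.0159 by limma), a 2.13-fold increase with a 95% interval from 1.61 to 2.82. The log2 fold change was 1.05 without hepatectomy replicate 1, the array with adrenal and fat transcripts, and 1.13 without hepatectomy replicate 2. Leaving out sham replicate 1 (1.03) or sham replicate 2 (1.15) ended the call. The call was also lost without the mean-variance trend (1.09, adjusted p = 0.107 by limma).

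**Figure D2:**
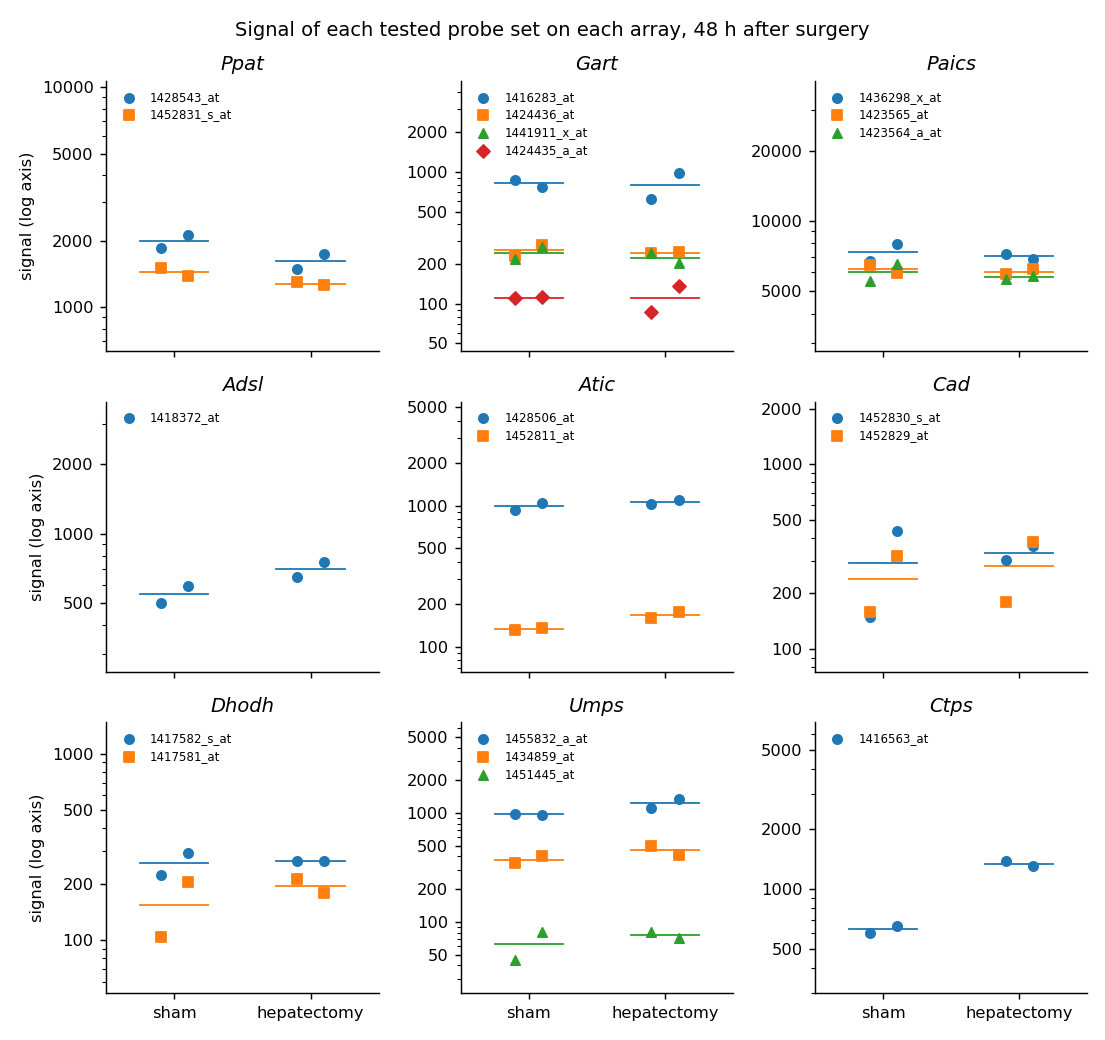
Signal on each array (log y axis) of the 20 tested probe sets of 9 genes, sham at left and hepatectomy at right in each panel; within a group the left point is replicate 1, and horizontal lines are means of 2 arrays. Ctps rose from 626 to 1341, while the Paics, Atic and Gart points lie near their sham levels and Cad spreads widely within groups.

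The purine route opens with Ppat, the amidophosphoribosyltransferase that commits PRPP to the pathway. Its probe set with the highest mean, 1428543_at, gave 1861 and 2137 in sham and 1498 and 1739 after hepatectomy. The hepatectomy values lay below the sham values, with a log2 fold change of -0.30 ± 0.16 (SE) and a 95% interval from -0.68 to 0.076 (adjusted p = 0.417 by limma). A second probe set of Ppat, 1452831_s_at, gave 1508 and 1392 in sham and 1300.3 and 1258 after hepatectomy, again below without overlap (-0.18, adjusted p = 0.654). The remaining Ppat probe set, 1441770_at, read 3.53 or less on every array, under the 20.4 of the brightest bacterial control probe set, and was not tested.

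Gart encodes a protein with 3 enzyme activities of the same route. Its brightest probe set, 1416283_at, read 874 and 767 in sham and 619 and 976 after hepatectomy. The hepatectomy arrays thus lay on either side of the sham arrays, and the log2 fold change was -0.073 ± 0.24 (SE; adjusted p = 0.923). It was 0.25 without hepatectomy replicate 1 and -0.40 without hepatectomy replicate 2. The other 3 Gart probe sets gave values from -0.13 to -0.030, none called.

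Paics, a protein that joins a carboxylase and a synthetase of the route, had 3 probe sets, with group means between 5734 and 7352. On 1436298_x_at the signal was 6750 and 7954 in sham and 7209 and 6857 after hepatectomy. The groups overlapped on all 3 probe sets, and the log2 fold changes were -0.060, -0.036 and -0.062. The widest of the 3 intervals ran from -0.36 to 0.24, which is from 0.779 to 1.18 times the sham level. These were the narrowest intervals among the members.

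Adsl, adenylosuccinate lyase, acts both in the route to IMP and in making AMP from it. It read 499 and 589 in sham and 648 and 749.9 after hepatectomy. The hepatectomy arrays lay above the sham arrays, but the log2 fold change of 0.36 ± 0.20 (SE) did not pass (adjusted p = 0.441), and its 95% interval ran from -0.11 to 0.83. Atic, which carries out the last 2 steps to IMP, read 928 and 1046 in sham and 1023 and 1089.9 after hepatectomy on 1428506_at, an overlapping pair of groups (0.099 ± 0.17, adjusted p = 0.84). Its dimmer probe set, 1452811_at, did not overlap, with 131 and 136 in sham and 160.3 and 175 after hepatectomy (0.31 ± 0.26, adjusted p = 0.635).

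On the pyrimidine side, Cad encodes the protein that carries the first 3 activities of the route, and its arrays agreed least. On 1452830_s_at it read 150.03 and 436 in sham and 303 and 362 after hepatectomy, so the hepatectomy values fell inside the sham range. The log2 fold change was 0.36 ± 0.44 (SE; adjusted p = 0.759), and the sign rested on the sham arrays: -0.39 without sham replicate 1 and 1.10 without sham replicate 2. The 95% interval, from -0.65 to 1.37, includes a doubling. On 1452829_at replicate 1 was the lower array in both groups, with 158 and 318 in sham and 181 and 381 after hepatectomy (0.22, adjusted p = 0.858). The remaining probe set, 1440857_at, read 24.9 or less on every array and was left out as dim.

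Dhodh encodes dihydroorotate dehydrogenase, the step of the route carried out in mitochondria. It read 223 and 295 in sham and 267 and 265 after hepatectomy on 1417582_s_at. The groups overlapped (0.049 ± 0.25, adjusted p = 0.952), and the value turned to -0.038 after centring each array on its median and to -0.060 after quantile normalisation. Its dimmer probe set, 1417581_at, gave 0.40 ± 0.35 (adjusted p = 0.644), with sham replicate 1 at 104 and the other 3 arrays between 179.9 and 213. Umps, which encodes UMP synthase, read 987 and 968 in sham and 1107 and 1362 after hepatectomy on 1455832_a_at. The hepatectomy arrays lay above the sham arrays there and on 1434859_at, but neither probe set passed (0.33 ± 0.18, adjusted p = 0.428, and 0.28 ± 0.22, adjusted p = 0.602). The Umps probe set 1451445_at gave 0.30 ± 0.37, and the fourth, 1431652_at, read 27.4 or less on every array and was not tested.

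Of the 9 genes, 3 had both hepatectomy arrays above both sham arrays (Adsl, Umps and Ctps) and 1 below (Ppat), where over all tested genes the shares were 28.1% above and 23.2% below. On the probe set that represents each gene, 7 of the 8 uncalled genes had 95% intervals within 2-fold either way. The exception was Cad, and the share was 66.2% over all uncalled genes. On dimmer probe sets the intervals of Dhodh (1417581_at) and Umps (1451445_at) also included a doubling, reaching 2.29-fold and 2.23-fold. The 7 genes with several tested probe sets had the same sign in each of them. A probe set's signal depends on its probes, so levels of different genes were not compared.

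**Figure D3:**
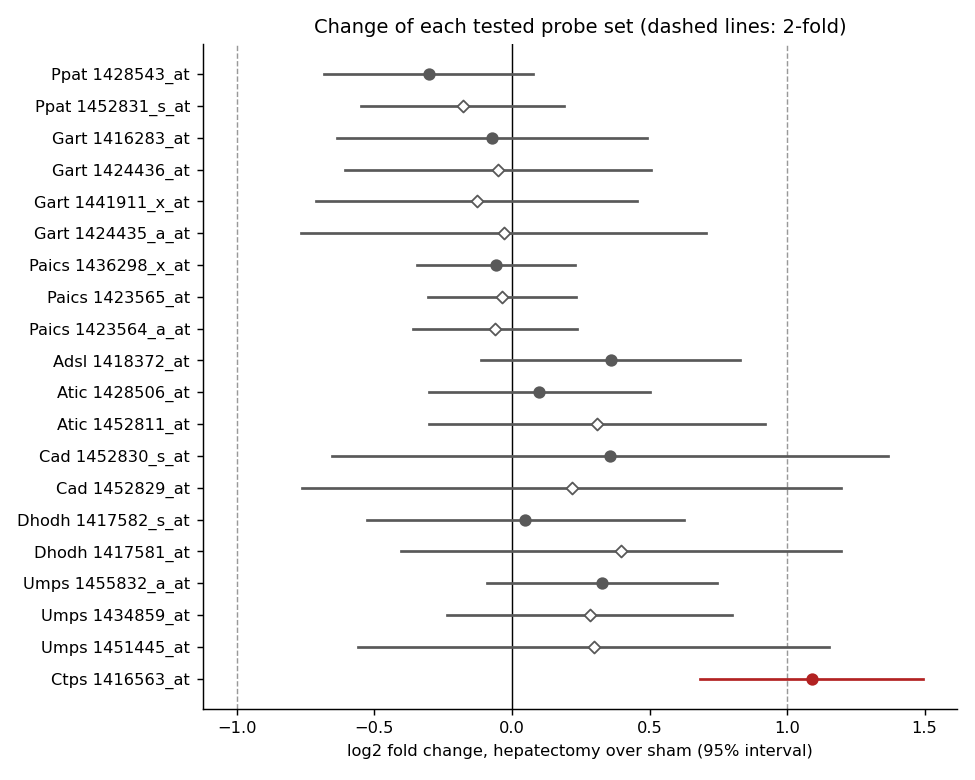
Log2 fold change of hepatectomy over sham for the 20 tested probe sets of 9 genes in pathway order, with 95% intervals from limma; filled circles are the probe set that represents a gene, open diamonds are others, red marks a call, and dashed lines mark 2-fold. The Ctps interval lies above 0, and the 19 others include it.

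Other enzymes of the same synthesis, taken from a list that holds no member, gave no call among 6 genes (median 0.18), against 3.57% of all genes called higher. At an unadjusted p of 0.05 by limma, 2 of the 6 were higher and 0 lower, beside 12.5% and 7.47% of all genes. Ctps2, which encodes the second CTP synthase, read 581 and 505 in sham and 1217 and 777 after hepatectomy (0.84 ± 0.25, adjusted p = 0.131). It gave 1.16 without hepatectomy replicate 2 and 0.51 without hepatectomy replicate 1. Pfas, an enzyme of the purine route, read 455 and 381 in sham and 599 and 639.6 after hepatectomy (0.56 ± 0.21, adjusted p = 0.225). Adssl1, an adenylosuccinate synthase, gave -0.39 (adjusted p = 0.419). None of 4 genes of PRPP synthesis passed (median -0.058), with 0.30 for the synthetase Prps1, -0.25 for its associated protein Prpsap1 and -0.21 for Prps2. The other probe sets of Prps2 gave values above 0.

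The lists of serine and folate one-carbon metabolism and of glutamine, aspartate and asparagine supply held calls. Over all genes 3.57% were called higher and 1.09% lower. Of 11 tested genes of serine and folate one-carbon metabolism 2 rose and none fell (median 0.94), and 5 were higher and 3 lower at an unadjusted p of 0.05, beside 12.5% and 7.47% of all genes. Psat1, an aminotransferase of serine synthesis, read 99.6 and 84.0 in sham and 873 and 583 after hepatectomy (2.85 ± 0.28, adjusted p = 0.00175). Mthfd2, a mitochondrial folate dehydrogenase, read 91.6 and 269.8 in sham and 745 and 830.2 after hepatectomy (2.25 ± 0.43, adjusted p = 0.0307). Without sham replicate 1 Mthfd2 gave 1.51 and no call, and without sham replicate 2 it gave 2.99. The Mthfd2 call was also lost with robust eBayes (adjusted p = 0.0567). Mthfd1l, the mitochondrial formate-producing synthetase, had a log2 fold change of 1.41 ± 0.31 and lay at the threshold (adjusted p = 0.0515). It gave 1.52 without hepatectomy replicate 1 and 1.305 without hepatectomy replicate 2. Among 5 genes of glutamine, aspartate and asparagine supply, Asns, asparagine synthetase, rose from 117 and 232 to 733 and 617 (1.97 ± 0.32, adjusted p = 0.0175). Asns gave 1.398 and no call without sham replicate 1. It was also not called with the mean of its probe sets (2.195, adjusted p = 0.062). Glul, glutamine synthetase, gave -0.083 (adjusted p = 0.789), and Cps1, the carbamoyl phosphate synthetase of the urea cycle, gave -0.066 (adjusted p = 0.859).

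Salvage pathways, which reuse bases and nucleosides, held 1 call in 20 tested genes. It was a higher one, and the count was near the 3.57% of all genes called higher. At an unadjusted p of 0.05 by limma, 5 of 9 purine salvage genes were higher and 1 lower. Of 11 pyrimidine salvage genes 2 were higher and 0 lower at that threshold. The shares over all genes were 12.5% higher and 7.47% lower. Cda, cytidine deaminase, which makes uridine from cytidine, read 423 and 405 in sham and 1862 and 1520.1 after hepatectomy, a 4.01-fold increase (2.00 ± 0.19, adjusted p = 0.00154). Of the other pyrimidine salvage genes, Nme1, a nucleoside diphosphate kinase, gave 0.35 (adjusted p = 0.256) with a second probe set of opposite sign (-0.52), and the nucleoside transporter Slc29a1 gave -0.68 (adjusted p = 0.314). Slc29a1 gave -1.16 without hepatectomy replicate 2 and -0.21 without hepatectomy replicate 1, the array with adrenal and fat transcripts. Dck, deoxycytidine kinase, was counted in the purine salvage list, although deoxycytidine is a pyrimidine nucleoside. Dck read 603 and 723 in sham and 1556 and 1128 after hepatectomy and just missed the threshold (0.996 ± 0.22, adjusted p = 0.0505). Of its 3 probe sets 1 passed (1.39). The representing probe set gave 1.23 without hepatectomy replicate 2 and 0.77 without hepatectomy replicate 1. The adenylate kinases Ak1 and Ak3 gave 1.37 (adjusted p = 0.105) and -0.40 (adjusted p = 0.147). Ak1 gave 1.68 without hepatectomy replicate 2 and 1.06 without hepatectomy replicate 1.

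No gene of nucleotide breakdown passed, among 10 of purines (median 0.21) and 6 of pyrimidines (median -0.16). At an unadjusted p of 0.05, 1 of the 10 purine genes was higher, near the 12.5% of all genes, and 2 of the 6 pyrimidine genes were lower, beside 7.47% of all genes. Gda, guanine deaminase, gave 0.42 (adjusted p = 0.298), the purine nucleoside phosphorylase Pnp 0.39 (adjusted p = 0.312) and the xanthine dehydrogenase Xdh 0.28 (adjusted p = 0.351). Upp2, a uridine phosphorylase, read 11876 and 10187 in sham and 987 and 4209 after hepatectomy (-2.43 ± 0.54, adjusted p = 0.0536). Its other 2 probe sets were called lower (-3.09 and -2.80). The size rested on the hepatectomy arrays, with -1.38 without replicate 1 and -3.47 without replicate 2. Dpys and Dpyd, which open and reduce the pyrimidine ring, gave -0.50 (adjusted p = 0.101) and -0.18 (adjusted p = 0.48).

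In deoxynucleotide supply 4 of 7 tested genes rose and none fell, beside 3.57% called higher and 1.09% called lower of all genes. Those that rose were the ribonucleotide reductase subunits Rrm1 (2.41 ± 0.26, adjusted p = 0.00258) and Rrm2 (1.34 ± 0.13), Dut (1.74 ± 0.19) and Dtymk (0.95 ± 0.16). Rrm2 gave 2.56 without probe sets that may match more than 1 transcript, and was not called without a mean-variance trend (adjusted p = 0.0717). Dut was represented by a probe set that may match several transcripts, and its other one gave 0.63 and was not called (adjusted p = 0.34). Dtymk was not called when either sham array was left out (0.88 for replicate 1, and 1.02 for replicate 2), or after median centring (0.86, adjusted p = 0.0601). Of 8 tested regulators, E2f1, a transcription factor of S phase genes, rose from 108 and 158 to 396 and 586 (1.81 ± 0.30, adjusted p = 0.0176). E2f1 gave 1.56 and no call without sham replicate 1. Of its 3 probe sets 1 had the opposite sign (-0.087), with overlapping groups. That probe set read 32.7 or less on every array, near the bacterial control level of 20.4. Another gave 1.09 and was not called (adjusted p = 0.134). The average of the 3 was not called (0.94, adjusted p = 0.166). Mxd1, a Max partner that opposes Myc, gave -0.79 (adjusted p = 0.113) and Max gave -0.39 (adjusted p = 0.368).

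Over these related lists together, 9 of 77 tested genes were called higher and none lower by limma, beside 3.57% and 1.09% of all genes. At an unadjusted p of 0.05 the counts were 21 and 7, beside 12.5% and 7.47% of all genes, so the count of lower genes was near the share over all genes. Without hepatectomy replicate 1, the array with adrenal and fat transcripts, 11 were called higher and 1 lower, and without sham replicate 1 the counts were 5 and 0. Without the filter on dim probe sets 5 were called higher, with Mthfd2, Asns, Dtymk and E2f1 no longer among them, and without a mean-variance trend 4 were, with Rrm2 lost beside those 4 genes. The related genes had a median of 0.029, against 0.025 over all genes. Whether the related genes differed from the members was not tested.

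**Figure D4:**
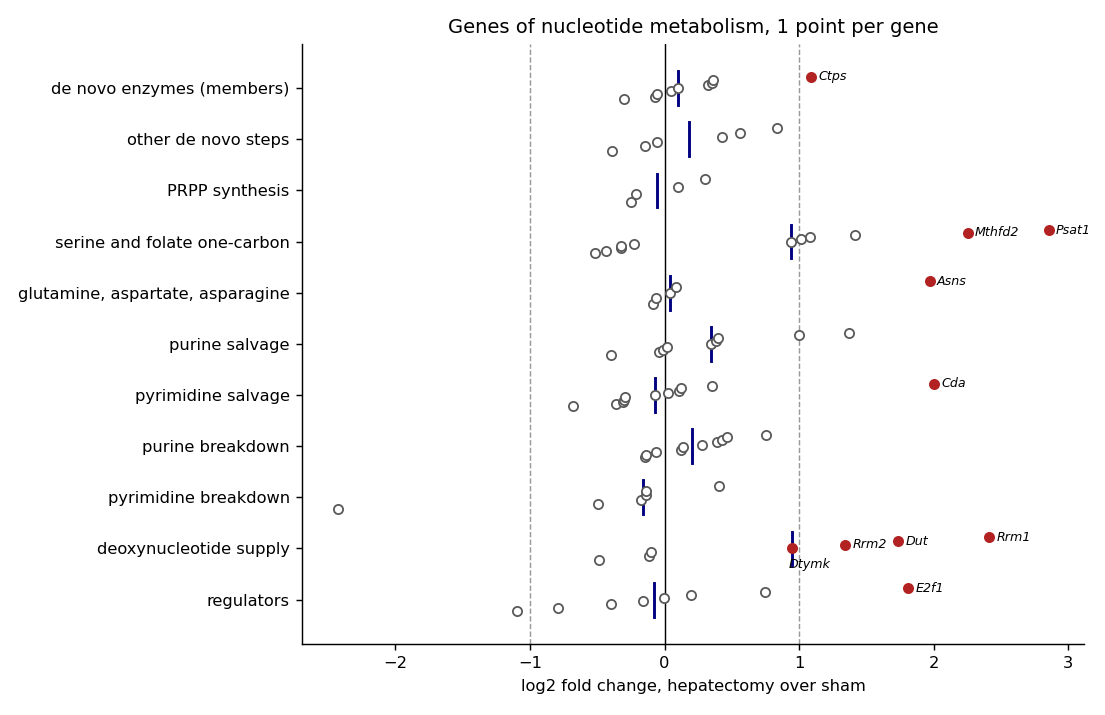
Log2 fold change of hepatectomy over sham, 1 point per gene, for the 9 members and 77 related genes by list; filled red points were called, dark blue bars are list medians, and dashed lines mark 2-fold. Ctps is the called member at 1.09, and the 9 called related genes lie between 0.95 and 2.85.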

How the data were processed

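The deposited values are linear intensities, a single signal for each probe set on each array, and GCOS 1.4 is the tool listed per the submitters' processing notes. No source used here gives its settings, detection calls or scan dates, and batches were not tested. Each array had a mean of 500 once 2% of its values were trimmed at either end, which shows that the authors' values were scaled to a common mean. Median signals ranged from 46.4 to 57.5.

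Control probe sets (64 of 45101) were left out. The platform annotation gave the gene symbols: 34945 probe sets had 1 symbol, 932 several and 9160 none. Signals were turned to log2 after adding 8.57, their 20th percentile, which understates changes of dim genes. Probe sets with a mean log2 under the 40th percentile (5.09) were dropped, leaving 27022, among them 20 of the 23 member probe sets. The test was limma 3.58.1 in R 4.3.3 (lmFit, then eBayes with trend; two-sided), with Benjamini-Hochberg adjustment over all 27022 probe sets and a call at 0.05. The fit had 2 residual and 6.02 prior degrees of freedom, and precision is limited by having 4 arrays. The 95% intervals are from the moderated fit and are not adjusted for many tests. A gene was represented by its tested probe set with the highest mean. Means and SDs are of the signals. The code was tested on simulated data.

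All 10 members were to be named, and from each related list every called gene and, where under 3 were called, those with the smallest adjusted p up to 3. The members and lists were chosen with earlier results of these data known, so counts over a list are descriptions. Of 89 related genes 81 had a probe set and 77 were tested. Promoter sequences are those of RefSeq, build GRCm38.p6. The bacterial control level (20.4, the highest of 27 probe sets) was chosen after seeing the data. The titles share replicate numbers, but nothing says that a number marks a shared animal or day.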

Additional observations from a re-analysis of the deposited data

How the results depend on the processing

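With 14 alternative settings and 9 member genes, 116 of 126 values kept their direction and side of the threshold. Ctps lost its call in 3 settings, which left 0 members called without a trend and between 0 and 1 when 1 array was left out. The members' median lay between 0.014 and 0.25 with 1 array left out. The count of all called genes was 218 without the filter, 173 without a trend, 1189 with the replicate number as a block, and 232 to 1250 with 1 array left out, against 586. Related genes called higher numbered 5 without the filter, 4 without a trend, 14 with the replicate block and 5 to 12 with 1 array left out, against 9. Related genes called lower numbered 1 with median centring, quantile normalisation, averaging of probe sets per gene, without the _s_at, _x_at and _a_at probe sets and with the replicate block, and 0 to 3 with 1 array left out, against 0. The replicate block changed no member's call (Ctps adjusted p = 0.00225). The differences between replicates 1 and 2 correlated by 0.10 between the groups over probe sets, and with 2 pairs the numbers were not taken to pair the arrays.

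Some uncalled values changed sign, from reported values between -0.21 for Prps2 and 0.40 for Dhodh 1417581_at, and none was called with either sign. Dhodh gave -0.038 with median centring and -0.060 with quantile normalisation, where the Paics probe set 1423565_at gave 0.0035. With probe sets averaged per gene Prps2 gave 0.37 and Nme1 -0.083. With 1 array left out the ranges were -0.39 to 1.10 for Cad, -0.14 to 0.24 for Dhodh, -0.40 to 0.25 for Gart, -0.18 to 0.059 for Paics, -0.19 to 0.025 for Glul and -0.22 to 0.089 for Cps1. Among the other probe sets they were -0.30 to 0.74 for Cad 1452829_at, -0.061 to 0.86 for Dhodh 1417581_at, -0.076 to 0.67 for Umps 1451445_at, -0.092 to 0.019 for Paics 1423565_at and -0.19 to 0.060 for Paics 1423564_a_at. For Gart they were -0.33 to 0.26 on 1424435_a_at, -0.18 to 0.077 on 1424436_at and -0.27 to 0.013 on 1441911_x_at. Among called related genes, E2f1 (0.94, adjusted p = 0.166) and Asns (2.195, adjusted p = 0.062) lost their calls with the mean of their probe sets, Rrm2 without a trend (adjusted p = 0.0717) and Mthfd2 with robust eBayes (adjusted p = 0.0567). Every fit with 1 array left out had a group of 1 array, so the spread within groups came from the other group alone. The median absolute log2 gap between the arrays of a group was 0.234 in sham and 0.273 after hepatectomy. Why calls were lost or gained in some of these fits was not tested.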
